A study of Mus musculus with 30 samples.

Results

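The nuclear-encoded subunits of the mitochondrial respiratory chain and ATP synthase were examined in mouse white fat. They were chosen by gene symbol: protein-coding genes named Nduf (complex I), Sdh (complex II), Uqcr or Cyc1 (complex III), Cox4 to Cox8 (complex IV) and Atp5 (complex V). Assembly factors, Cox7a1, Cox8b, Ndufa4l2 and the ATP synthase inhibitor Atpif1 were left out by the rule. It gave 85 of the 35120 genes counted, of which 38 were placed in complex I, 4 in complex II, 9 in complex III, 16 in complex IV and 18 in complex V. The complex was read from the symbol alone, so Ndufa4 was counted under complex I by its name, whichever complex its protein is in. A few entries need a word: Ndufb1-ps is the gene table's name for Ndufb1, Usmg5 encodes the small ATP synthase subunit also called DAPIT, Atp5s encodes a coupling factor that is no longer counted as a structural subunit, and Ndufb4c, a copy of Ndufb4, reached at most 0.805 CPM (a library's counts for a gene, scaled by its total to a common sum).

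Complexes I to IV pass electrons from NADH and succinate to oxygen and pump protons out of the mitochondrial matrix, and complex V uses the returning protons to make ATP. A few core subunits are encoded by mitochondrial DNA, and all the others come from the nucleus and must be imported. Several nuclear subunits exist as paralogues that replace one another by tissue: Cox6a2, Cox7a1 and Cox8b are typical of heart, muscle and brown fat, Cox4i2 of lung and vessels, and Cox6b2, Cox7b2 and Cox8c of testis. White adipocytes hold few mitochondria beside brown ones, and these serve lipid synthesis as well as ATP supply.

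The libraries came from Ctnnb1AdKO mice and their Ctnnb1fl/fl controls, which carry a floxed Ctnnb1 gene, the gene of the Wnt signal transducer beta-catenin. Fat was digested with collagenase into floating adipocytes and pelleted stromal-vascular cells (SVC). There were 6 Ctnnb1fl/fl and 5 Ctnnb1AdKO male adipocyte libraries, 6 and 6 female adipocyte libraries, and 3 and 4 male SVC libraries, and no female SVC. The labels name the epididymal and the posterior subcutaneous depot for every library, the female ones included, so the depot mix cannot be told apart from sex. They call controls matched for sex and age, and give no age, no promoter driving the deletion and no statement that replicates are separate mice, so the p-values measure the spread between these libraries, which may in part be technical. Each library held 20484836 to 22209603 counts.

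Ctnnb1 mRNA did not separate the genotypes: it ran from 307.6 to 340.5 CPM in male Ctnnb1fl/fl and from 308.1 to 367.9 CPM in male Ctnnb1AdKO adipocytes, and from 291.4 to 358.9 CPM against 283 to 366.6 CPM in females. The labelled genotypes are used below as given, and the deletion itself was not checked by these counts, since the deleted exons are not named in the sources used here. The 8 adipocyte markers summed to 28020 to 32610 CPM in male Ctnnb1fl/fl adipocytes and 894.9 to 1346 CPM in the matching SVC. In 2 SVC libraries, Ctnnb1fl/fl replicate 1 and Ctnnb1AdKO replicate 4, the 10 sperm and testis markers summed to 728.1 and 4409 CPM, against at most 143.4 CPM in the other 5. Results that rest on these 2 libraries are given with and without them.

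Together the 85 genes took 16940 ± 938 CPM in male Ctnnb1fl/fl adipocytes (SD, n = 6), 19330 ± 2195 CPM in female Ctnnb1fl/fl adipocytes (n = 6) and 4639 ± 859 CPM in male Ctnnb1fl/fl SVC (n = 3). The Ctnnb1AdKO libraries held 16910 ± 3421 CPM in male adipocytes (n = 5), 20210 ± 1844 CPM in female adipocytes (n = 6) and 5257 ± 498 CPM in SVC (n = 4). The wide spread in male Ctnnb1AdKO adipocytes came from 1 library: replicate 5 held 22870 CPM and the other 4 held 14220 to 16280 CPM. Complex V, the largest by summed CPM, made up 6953 ± 355 CPM of the total in male Ctnnb1fl/fl adipocytes, complex I 4098 ± 257 CPM, complex IV 2697 ± 307 CPM, complex III 1780 ± 133 CPM and complex II 1414 ± 47.7 CPM.

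The first comparison asked how far the chain's transcripts belong to adipocytes and how far to the other cells of fat. In male Ctnnb1fl/fl libraries, 78 of the 83 members tested were higher in adipocytes than in SVC and 2 were lower, with a median log2 fold change of 2.36. Over all 17251 genes tested, 77.1% were called, 32.8% higher and 44.2% lower, and the median was -0.295. Calls are adjusted p below 0.05 in edgeR's quasi-likelihood test with Benjamini-Hochberg adjustment over all genes tested. In bulk RNA, fewer cells of a type and less RNA per cell cannot be told apart. In CPM, 78 members had every adipocyte library above every SVC library and 2 had every one below, against 22.1% and 52.5% of all genes tested.

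The sets that rose spanned every complex. Complex I had 37 of 38 members higher (median 2.54), complex II 4 of 4 (2.51), complex III 9 of 9 (2.33), complex IV 10 of 14 (2.18) and complex V 18 of 18 (2.03). Atp5k, the small e subunit that joins ATP synthase into dimers, differed most in complex V: it ran from 37.87 to 75.13 CPM with a median of 57.93 in the 6 adipocyte libraries and stood at 6.479, 5.172 and 8.933 CPM in the 3 SVC libraries. The groups were far apart, with a log2 fold change of 3.60 ± 0.31 (SE, adjusted p = 1.34e-08, edgeR). Uqcr11, the smallest subunit of complex III, ran from 102.3 to 185.4 CPM against 18.63, 12.23 and 27.13 CPM, a log2 fold change of 3.47 ± 0.28 (edgeR adjusted p = 8.05e-09). Sdha, the flavoprotein of succinate dehydrogenase, led complex II, at 784.7 to 907.2 CPM against 207.3, 182.2 and 176.6 CPM, a difference of 2.73 ± 0.17 on the log2 scale. Cox8a, the ubiquitous form of a small complex IV subunit, led complex IV with 3.15 ± 0.21. Ndufb9 led complex I with 3.59, and the level of this gene is uncertain, as described below. The called rise in the ATP synthase list was lowest for Atp5g1, one of 3 genes for the same c-ring protein, at 0.99 ± 0.18.

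**Figure D1:**
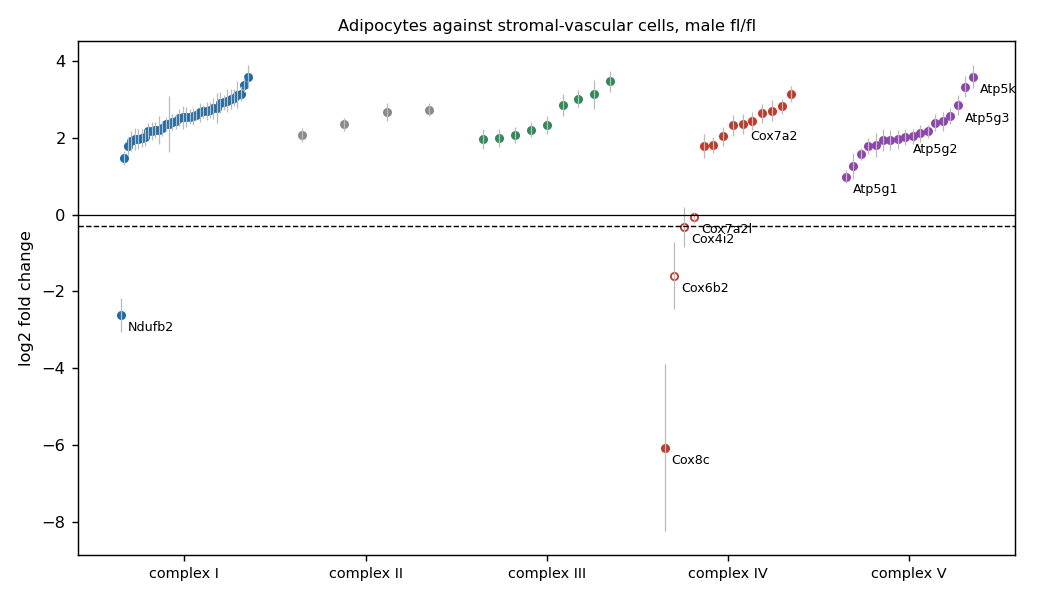
Log2 fold change of each member in male Ctnnb1fl/fl adipocytes against SVC, by complex, with its SE as a grey line. Filled points have an adjusted p below 0.05, open points do not, the dashed line is the median of all genes tested (-0.295), and most members lie between 1 and 4 while Cox7a2l, Cox4i2, Cox6b2, Ndufb2 and Cox8c lie at or below 0.

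In the Ctnnb1AdKO males the same contrast gave 77 members higher and 4 lower of 83, with a median of 2.06, where 76.5% of all genes tested were called, 31.8% higher and 44.7% lower, and their median was -0.294. Complex medians were 2.18, 2.22, 2.06, 1.94 and 1.88 from I to V. The 4 lower members were Ndufb2, Cox4i2 (-1.36 ± 0.50, edgeR adjusted p = 0.0199), Cox6b2 (-3.76 ± 0.92, adjusted p = 0.00142) and Cox8c. These knockout libraries share no sample with the Ctnnb1fl/fl libraries above.

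The upstream sequence of 4 members is shown as examples: Atp5g3, Cox8a and Ndufb6 were higher in adipocytes, and Cox7a2l was not called. They were picked by hand, none holds the NRF1 motif, and whether a match goes with the difference was not tested. RefSeq (GRCm38.p6) holds an entry for 68 of the 85 members. Each line gives the 250 bases before the annotated start, 5′ to 3′ on the gene's strand, and capitals mark a match to a motif of a factor known to drive mitochondrial genes.
Atp5g3, chr2:73911327-73911576, minus strand: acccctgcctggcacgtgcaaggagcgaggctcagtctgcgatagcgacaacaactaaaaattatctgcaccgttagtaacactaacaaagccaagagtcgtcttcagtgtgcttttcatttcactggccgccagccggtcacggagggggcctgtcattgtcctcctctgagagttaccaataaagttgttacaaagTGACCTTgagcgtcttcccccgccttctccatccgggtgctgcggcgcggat
Cox8a, chr19:7217617-7217866, minus strand: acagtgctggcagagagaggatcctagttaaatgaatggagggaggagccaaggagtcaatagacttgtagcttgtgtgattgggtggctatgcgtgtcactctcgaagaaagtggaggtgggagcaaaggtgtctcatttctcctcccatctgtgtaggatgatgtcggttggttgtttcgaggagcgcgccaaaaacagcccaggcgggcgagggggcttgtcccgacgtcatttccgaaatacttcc
Ndufb6, chr4:40279422-40279671, minus strand: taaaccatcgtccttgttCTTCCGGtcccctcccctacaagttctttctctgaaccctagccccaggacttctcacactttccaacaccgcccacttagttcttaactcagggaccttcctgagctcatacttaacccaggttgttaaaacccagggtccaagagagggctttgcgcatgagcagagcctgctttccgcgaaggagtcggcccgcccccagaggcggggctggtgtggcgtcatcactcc
Cox7a2l, chr17:83514334-83514583, minus strand: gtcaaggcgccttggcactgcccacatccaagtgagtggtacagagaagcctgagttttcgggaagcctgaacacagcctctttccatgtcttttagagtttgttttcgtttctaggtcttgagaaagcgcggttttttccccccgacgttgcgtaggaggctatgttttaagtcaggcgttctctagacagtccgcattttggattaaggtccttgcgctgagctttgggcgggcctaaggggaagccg
The capitals in Atp5g3 are the reverse complement of the oestrogen-related receptor motif AAGGTCA, and those in Ndufb6 the reverse complement of the GABPA motif CCGGAAG. Neither Cox8a nor Cox7a2l held any of the 4 motifs searched. In these 250 bases, on either strand, the NRF1 motif stood in 12 of 68 members (17.6%, against 3.86% of 27025 genes), CCGGAAG in 11 (16.2% against 7.05%), AAGGTCA in 5 (7.35% against 4.05%) and the YY1 motif AAGATGGCG in 0 (against 0.607%). The members' windows were also richer in G and C, with a median of 57% against 52%, and a match is a string of letters, not a bound site.

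Cox7a2l, a paralogue of Cox7a2 that takes part in joining complexes III and IV into supercomplexes, was one of 4 complex IV members not called higher in adipocytes, beside Cox4i2 (-0.32), Cox6b2 (-1.60) and Cox8c. It ran at 83.62, 96.14, 84.24, 82.77, 79.68 and 88.34 CPM in male Ctnnb1fl/fl adipocytes and at 118.9, 114.1 and 153.6 CPM in SVC. The fitted log2 fold change was -0.07 ± 0.14 (edgeR adjusted p = 0.667) on the TMM scale, which sets a typical gene nearer to no change between the fractions than CPM does. With library totals less the mitochondrially encoded genes as the scale it was -0.58 ± 0.10 and called lower, while the median of all genes moved from -0.295 to -0.842. Cox7a2 itself was 2.36 ± 0.26 higher in adipocytes, at 81.29 to 122.5 CPM against 28.2, 20.93 and 37.5 CPM.

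The ratio of the paralogues within a library does not depend on the scale. The log2 ratio of Cox7a2 to Cox7a2l (0.5 counts added to each) was 0.27 ± 0.20 in the male Ctnnb1fl/fl adipocytes and -2.18 ± 0.23 in the SVC, a difference of 2.45 with no overlap between the groups. The exact two-sided permutation p was 0.0238, the smallest that 6 against 3 libraries allow, and 0.05 after Benjamini-Hochberg adjustment over the 42 ratio tests of 7 pairs, which does not pass. In Ctnnb1AdKO males the difference was 2.09 (exact p = 0.0159, the smallest that 5 against 4 libraries allow, adjusted 0.0476). It passed in 16 of the 32 settings tried for these ratios. Per kilobase of the principal annotated transcript, Cox7a2 made up 66.2 ± 3.2% of the pair in male Ctnnb1fl/fl adipocytes, 70.1 ± 2.6% in the female ones and 26.5 ± 3.0% in SVC, so the order of the paralogues was opposite in adipocytes and SVC.

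In adipocytes the other complex IV pairs consisted almost wholly of the ubiquitous form. Cox4i2 took 0.166 ± 0.035% of the Cox4i pair per kilobase in male Ctnnb1fl/fl adipocytes and 1.28 ± 0.83% in SVC. Cox6a2, the heart and muscle form, reached at most 0.605 CPM in any library, and its ratio was not tested. Cox6b2, a testis form, took 0.388 ± 0.107% of its pair per kilobase in male Ctnnb1fl/fl adipocytes. Among the 3 c-ring genes, Atp5g3 was the major one: it took 82.4 ± 1.1% of the Atp5g3 and Atp5g2 pair per kilobase in male Ctnnb1fl/fl adipocytes and 72.3 ± 1.1% in SVC. Atp5g1 is not set on that scale because its annotated transcripts differ widely in length.

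Cox8b and Cox7a1, the brown-fat and muscle relatives outside the members, were low but also higher in adipocytes. Cox8b ran from 1.265 to 10.21 CPM in male Ctnnb1fl/fl adipocytes against at most 0.0476 CPM in SVC, and Cox7a1 from 0.994 to 5.399 CPM against 0.186 to 0.572 CPM (log2 fold change 3.06 ± 0.61, edgeR adjusted p = 0.000212). The inhibitor Atpif1 differed by -0.14 (edgeR adjusted p = 0.518).

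Ndufb2, a complex I accessory subunit, was the one complex I member lower in adipocytes. It ran from 0.226 to 0.724 CPM in male Ctnnb1fl/fl adipocytes and from 2.745 to 4.979 CPM in SVC, with no overlap, and the log2 fold change was -2.61 ± 0.43 (edgeR adjusted p = 3.71e-05). Its level was far below that of its partners: at a mean of 1.105 CPM over all libraries it was the 2nd lowest of the 38. In the GENCODE annotation a second gene on the same strand shares 46.0% of the coding bases of Ndufb2, and the counted table does not hold that gene. The same holds for Ndufb9 (37.4% shared, mean 17.43 CPM), Atp5o (35.7%, 13.84 CPM, 2nd lowest of 18 in complex V) and Ndufb8 (19.9%, 111.1 CPM). How reads in such shared stretches were assigned is not given in the sources used here, so the levels of these 4 genes are uncertain.

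The testis forms of complex IV were highest where sperm transcripts were. Cox8c stood at 8.337, 0.532 and 0 CPM in the 3 SVC Ctnnb1fl/fl libraries and at 0.0919, 0, 0 and 73.28 CPM in the 4 SVC Ctnnb1AdKO libraries. Cox7b2 stood at 2.287, 0.145 and 0 CPM, and at 0, 0, 0 and 24.77 CPM. Cox6b2 stood at 8.051, 1.402 and 1.861 CPM, and at 1.70, 0.895, 2.197 and 46.6 CPM. All 3 were highest in the same 2 libraries, those with the sperm markers, in which Akap4, a sperm tail anchoring protein, reached 95.62 and 460.9 CPM. In female adipocytes Cox8c and Cox7b2 were at 0 in all 12 libraries, and the 10 sperm and testis markers summed to at most 0.0932 CPM.

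**Figure D2:**
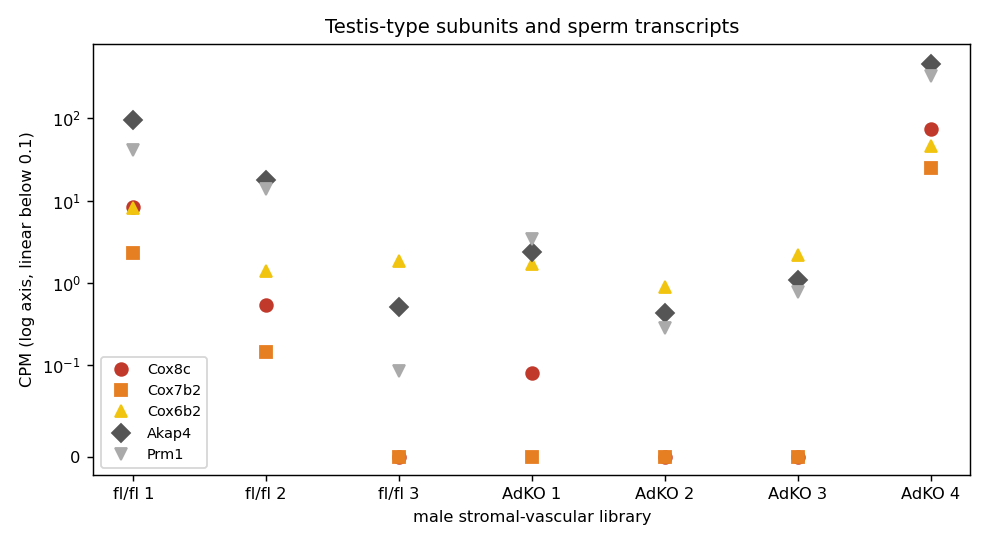
CPM of Cox8c, Cox7b2 and Cox6b2 and of the sperm transcripts Akap4 and Prm1 in each male SVC library, on a log axis that is linear below 0.1. All 5 are highest in Ctnnb1AdKO replicate 4 and next highest in Ctnnb1fl/fl replicate 1, and points of Cox8c at 0 lie under those of Cox7b2.

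With those 2 libraries left out, Cox8c had too few counts to be tested, and the lower members in the Ctnnb1fl/fl fraction contrast were reduced from 2 to 1 (Ndufb2, -2.72 ± 0.39). With them it was lower in adipocytes by a fitted -6.08 ± 2.18 (edgeR adjusted p = 0.018), and this call was also lost without SVC Ctnnb1fl/fl replicate 1 alone (adjusted p = 0.337). Cox6b2 in the Ctnnb1AdKO contrast moved from -3.76 to -0.92 ± 0.38 (adjusted p = 0.0363). Whether sperm RNA gave the remaining counts of these 3 genes was not tested.

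The factors that build the complexes were mostly higher in adipocytes as well. Over all genes tested in this contrast 32.8% were higher and 44.2% lower. Of the assembly factors tested, 17 of 17 for complex I, 4 of 4 for II, 6 of 6 for III, 16 of 19 for IV and 5 of 5 for V were higher in male Ctnnb1fl/fl adipocytes. Ndufaf1, which builds the membrane arm of complex I, differed by 3.13 ± 0.18, and Surf1, needed to insert haem into complex IV, by 2.02 ± 0.11. Cox17, the copper chaperone of complex IV, was called lower, at -2.69 ± 0.51 (edgeR adjusted p = 0.000136). Electron carriers were higher for 14 of 15: the list holds cytochrome c, the coenzyme Q enzymes, the electron transfer flavoprotein genes Etfa, Etfb and Etfdh, and Ndufab1, the acyl carrier subunit of complex I, whose symbol the rule for the members does not match. Among them was Coq6 at 3.06 ± 0.16. All 11 mitochondrially encoded messages tested were higher (median 1.84). Their levels were very unequal. In male Ctnnb1fl/fl adipocytes the mean was 7408 CPM for mt-Co1 and 3480 CPM for mt-Cytb. It was only 2.791 CPM for mt-Co2, 2.308 CPM for mt-Co3 and 1.494 CPM for mt-Atp6. The reason was not tested, so the levels of the low ones are uncertain and the counts and medians of this list are limited by them. Of 16 regulators of mitochondrial genes 8 were higher and 5 lower, so most were called in one direction or the other, as were 77.1% of all genes. Among them were Esrra, which encodes oestrogen-related receptor alpha, at 1.73 ± 0.19 and Gabpb1, a subunit of the GABP factor, at -1.14 ± 0.15.

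Genotype made no member pass in SVC. Of 82 members tested, 0 were called, as were 0% of all 16404 genes in edgeR. At an unadjusted p below 0.05, 0 members passed, against 0.421% of all genes higher and 2.19% lower. DESeq2 and limma-voom also called 0 members, where they called 76 and 0 genes over all. Fitted values were above 0 for 77 of 82 (56.0% of all genes), with a median of 0.205 (all genes 0.0436). That median was 0.0641 without the 2 sperm-rich libraries. The summed levels overlapped, at 4409, 3917 and 5589 CPM in Ctnnb1fl/fl and 5216, 4680, 5234 and 5897 CPM in Ctnnb1AdKO. All 8 adipocyte markers had fitted values above 0 in Ctnnb1AdKO SVC as well, none called, among them Adipoq (1.22 ± 1.07) and Fabp4 (0.46 ± 0.35). They summed to 894.9, 1189 and 1346 CPM in Ctnnb1fl/fl and to 2101, 1625, 1843 and 1395 CPM in Ctnnb1AdKO, with no overlap, and their part in the members' values was not tested.

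The design also allows female and male control adipocytes to be compared. Of 82 members tested, 45 were higher in female Ctnnb1fl/fl adipocytes and 0 lower, with a median log2 difference of 0.389. Of all 14227 genes tested 43.8% were called, 23.7% higher and 20.1% lower, with a median of 0.0493. Complex I had 21 of 38 members higher, complex II 2 of 4, complex III 5 of 9, complex IV 8 of 13 and complex V 9 of 18. Levels overlapped for most members: 10 had every female library above every male one (9.48% of all genes tested did), and 0 had every one below (11.2%).

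Among single members, Cox7c and Cox7b of complex IV had the largest differences. Cox7c, a small subunit of complex IV, stood at 118.3, 156.1, 90.41, 100.5, 123 and 79.62 CPM in male Ctnnb1fl/fl and at 262.1, 251.8, 233.4, 276.8, 168.8 and 155.4 CPM in female Ctnnb1fl/fl adipocytes. Only the highest male library and the lowest female one overlapped, and the log2 difference was 0.99 ± 0.17 (edgeR adjusted p = 5.4e-05). Cox7b ran from 60.15 to 89.33 CPM in males and from 105.6 to 165.7 CPM in females, with no overlap, a difference of 0.89 ± 0.13 (adjusted p = 7.3e-06). Ndufb3, an accessory subunit of the complex I membrane arm, led complex I (0.88 ± 0.17), Uqcrb, a small subunit, led complex III (0.76 ± 0.14), Usmg5 led complex V (0.71 ± 0.19) and Sdhd, a membrane anchor, led complex II (0.45 ± 0.10).

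Members with over 900 coding bases lay near 0, from -0.21 to 0.08. Atp5b, the catalytic beta subunit of ATP synthase, ran from 2690 to 3295 CPM in males and from 2524 to 3045 CPM in females, with overlapping groups, and the log2 difference was -0.12 ± 0.12. Atp5a1 differed by -0.03 ± 0.12, Sdha by -0.18 ± 0.12, the NADH-binding Ndufv1 by -0.07 ± 0.11, the iron-sulphur subunit Ndufs1 by -0.03 ± 0.14 and the core protein Uqcrc1 by -0.18 ± 0.13. None of these 6 had an adjusted p below 0.05 in edgeR. Uqcrfs1, the gene of the Rieske iron-sulphur protein, has 822 coding bases and differed by 0.58.

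Coding length ordered the members. Of those with a principal coding sequence under 400 bases, 31 of 37 were higher in females (median 0.475), of those from 400 to 900 bases 13 of 31 (0.256), and of those over 900 bases 0 of 12 (-0.05). All coding genes tested ran the same way: 48.9% were higher under 400 bases (median 0.374), 34.5% from 400 to 900 (0.185) and 18.7% over 900 (-0.03). Spearman's rho between the difference and coding length was -0.725 over 80 members and -0.244 over 12714 coding genes, a description across genes that share libraries and a count model. The part of length in the sex difference was not tested.

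**Figure D3:**
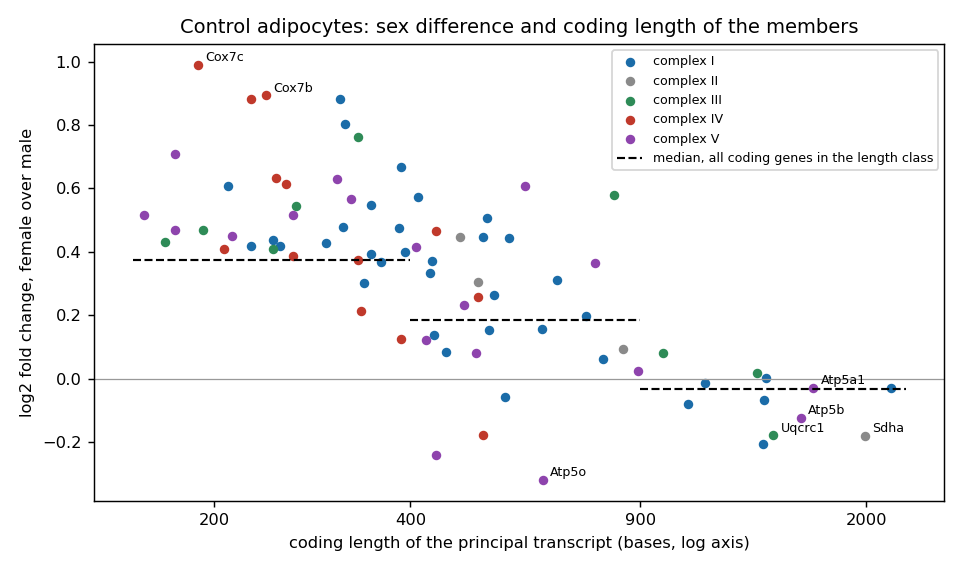
Log2 difference, female over male Ctnnb1fl/fl adipocytes, against coding length (bases, log axis) for the 80 members with a length, coloured by complex. Dashed lines are the medians of all coding genes in the same length class (0.374, 0.185 and -0.03), and the members fall from near 1 for the shortest to about 0 or below for the longest.

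Female against male Ctnnb1AdKO adipocytes, which share no library with the control contrast, gave 57 higher and 0 lower of 82, with all 82 fitted values above 0 and a median of 0.493. Here 34.6% of all genes were called, 18.2% higher and 16.5% lower, and their median was 0.0353. By length, from short to long, 35 of 37, 20 of 31 and 1 of 12 members were higher. Of all coding genes in the same classes 40.75%, 23.92% and 15.03% were higher. Other lists were counted between the control sexes too, where 23.7% of all genes were higher and 20.1% lower. Mitochondrially encoded messages were higher for 11 of 12 (median 1.07), with mt-Co1 at 1.41 ± 0.14 and mt-Cytb at 1.35 ± 0.15. The 12 include messages near the floor, such as mt-Nd3, with a mean of 0.256 CPM in male and 0.821 CPM in female Ctnnb1fl/fl adipocytes. Assembly factors were higher for 11 of 17 (complex I), 3 of 4 (II), 2 of 6 (III), 9 of 18 with 1 lower (IV) and 2 of 5 (V). Electron carriers were higher for 5 of 15, with Cycs, cytochrome c, at 0.80 ± 0.15. Regulators lay at the share of all genes: of 15, 3 were higher, among them Tfam, which packages and transcribes mitochondrial DNA (0.37 ± 0.08), and 3 lower, among them Esrra (-0.71 ± 0.17).

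Markers of other cells also differed between control sexes. Of 10 brown or beige adipocyte markers 7 were higher in females, summing to 66.75 to 178.5 CPM against 25.71 to 122.9 CPM. Cox8b was among them, at 7.185 to 15.14 CPM against 1.265 to 10.21 CPM, a log2 difference of 1.12 ± 0.35, as was Cox7a1 (1.06 ± 0.42). Of 10 macrophage markers 6 were lower, summing to 218.5 to 500.1 CPM against 470.5 to 972.4 CPM, and 4 of 7 fibroblast and preadipocyte markers were higher. The 10 skeletal muscle markers summed to 84.19 to 278.4 CPM against 38.32 to 77.99 CPM, with no overlap. Of these, Acta1 (1.55 ± 0.32) and Tnnc2 (1.11 ± 0.33) were called higher and Actn3 (-1.95 ± 0.47) lower. In the smooth muscle and pericyte list Tagln (3.465 ± 0.35) and Acta2 (2.12 ± 0.50) were called higher and Cspg4 (-0.79 ± 0.25) lower. The other markers tested in these 2 lists were not called. The part of these cells in the sex difference was not tested.

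The series is titled as a study of beta-catenin deficiency in fat, which the genotype comparison addresses. In males 0 of 82 members were called, where 0.0703% of all 14227 genes were. Fitted values were above 0 for 30 (52.5% of all genes), with a median of -0.0481 (all genes 0.0151). At an unadjusted p below 0.05, 1 member was higher (6.95% of all genes) and 6 lower (6.13%). The smallest adjusted p belonged to Atp5o, the stalk subunit that confers oligomycin sensitivity. It stood at 23.2, 24.5, 18.37, 17.95, 22.53 and 14.69 CPM in Ctnnb1fl/fl and at 11.81, 10.47, 9.709, 13.39 and 17.2 CPM in Ctnnb1AdKO. Only Ctnnb1AdKO replicate 5 and Ctnnb1fl/fl replicate 6 brought the groups to overlap, and the log2 difference was -0.72 ± 0.16 (edgeR adjusted p = 0.0723).

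Atp5o passed under some other settings: without Ctnnb1AdKO replicate 5 it was -0.87 ± 0.16 (edgeR adjusted p = 0.0131), without Ctnnb1fl/fl replicate 6 -0.80 ± 0.16 (0.0437), and in DESeq2 -0.73 ± 0.17 (0.00532). DESeq2 called 159 genes over all in this comparison, against 10 in edgeR. Without Ctnnb1AdKO replicate 5, 3 further members were called lower: Atp5g2 (-0.52 ± 0.11, adjusted p = 0.0296), the complex I subunit Ndufa10 (-0.41 ± 0.09, 0.0315) and Ndufb9 (-0.45 ± 0.12, 0.0447), and the members' median was -0.186. With it they were -0.40 ± 0.12, -0.28 ± 0.11 and -0.33 ± 0.12, with no call. The male count thus rose from 0 to 4 without replicate 5 and to 1 without Ctnnb1fl/fl replicate 6. The share of all genes called without these libraries is not given here, so these counts are not a result about the members. Atp5o and Ndufb9 are among the genes whose counting is uncertain. In the other complexes the smallest p belonged to Sdhd (0.10 ± 0.10), the Rieske iron-sulphur protein gene Uqcrfs1 (0.24 ± 0.11) and Cox7b (0.22 ± 0.13), none of them called.

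In females 0 of 82 members were called, where 0.471% of all genes were. Fitted values were above 0 for 68 (51.5% of all genes), with a median of 0.109 (all genes 0.00641). At an unadjusted p below 0.05, 3 members were higher (4.79% of all genes) and 0 lower (5.53%): Ndufs1 (0.32 ± 0.14), Uqcrfs1 (0.26 ± 0.10) and Cox7b (0.26 ± 0.12). Uqcrfs1 stood at 283.9, 253.6, 248.8, 264, 263.4 and 234.8 CPM in Ctnnb1fl/fl and at 320.6, 348.5, 241, 296, 300.9 and 253.1 CPM in Ctnnb1AdKO. The upper 4 Ctnnb1AdKO libraries lay above all controls and the other 2 among them (edgeR adjusted p = 0.368). All 9 complex III members had values above 0, with a median of 0.199. Sdha, the complex II member of smallest p, was at 0.23 ± 0.12.

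Some mitochondrially encoded messages did pass in females: 7 of 12 were higher in Ctnnb1AdKO, with a median of 0.73, where 0.471% of all genes were called. The 12 again include messages near the floor. mt-Nd5 differed by 0.85 ± 0.14 (edgeR adjusted p = 0.00382) and mt-Nd1 by 0.66 ± 0.12 (adjusted p = 0.0124). In males 0 of 12 passed, and the difference between the sexes gave 0 of 12 as well. Ppargc1a, the coactivator of mitochondrial gene programmes, was higher in female Ctnnb1AdKO adipocytes by 1.22 ± 0.24 (edgeR adjusted p = 0.0143), and 3 of 10 brown or beige markers, which include it, were higher, summing to 211.6 to 400.7 CPM against 66.75 to 178.5 CPM. Cox7a1 (1.38 ± 0.39, adjusted p = 0.139) and Cox8b (1.07 ± 0.33, 0.192) did not pass. All 10 macrophage markers had fitted values below 0 in females, with 1 called lower.

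**Figure D4:**
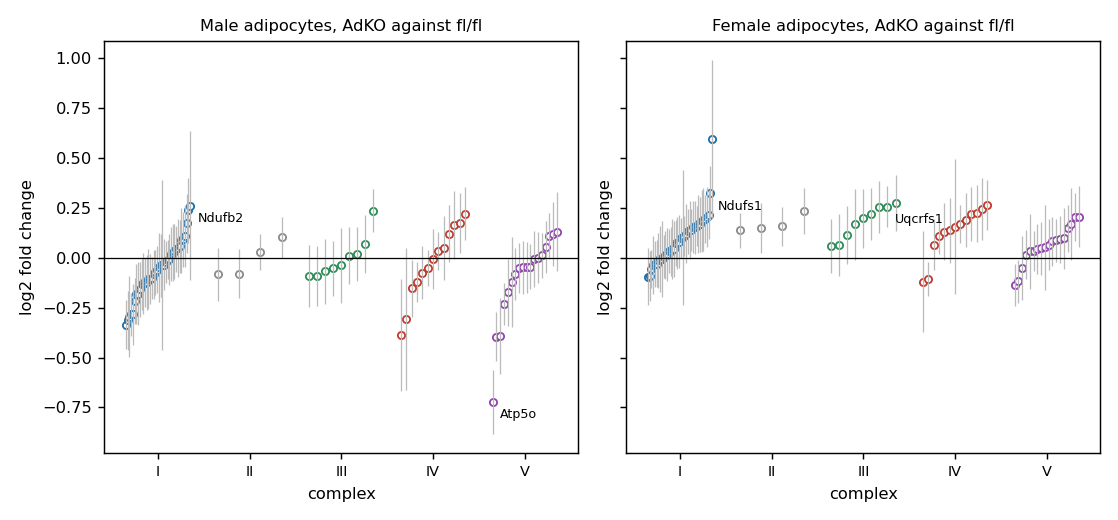
Log2 fold change of each member, Ctnnb1AdKO against Ctnnb1fl/fl, in male (left) and female (right) adipocytes by complex, with its SE as a grey line. All points are open since no adjusted p was below 0.05, and the medians are -0.0481 in males and 0.109 in females.

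The genotype difference itself was then compared between the sexes and averaged over them. The female less male difference gave 0 called members (0.0141% of all genes were called), with a median of 0.134 (all genes -0.0108). Atp5o was at 0.93 ± 0.22 (edgeR adjusted p = 0.283). It passed in DESeq2 (0.94 ± 0.23, adjusted p = 0.0337), which called 23 genes over all against 2 in edgeR, and without male Ctnnb1AdKO replicate 5 (1.08 ± 0.21, 0.0358). The average over the sexes also gave 0 called members (0.759% of all genes), with a median of 0.0337, and Uqcrfs1 had the smallest adjusted p, 0.114.

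Within the c-ring family, the ratio of Atp5g3 to Atp5g2 separated the genotypes without overlap in male adipocytes and in male SVC. The log2 ratio of Atp5g3 to Atp5g2 stood at 2.00, 2.24, 2.31, 2.26, 2.22 and 2.26 in male Ctnnb1fl/fl adipocytes and at 2.46, 2.57, 2.64, 2.46 and 2.76 in male Ctnnb1AdKO adipocytes. The groups did not overlap, and the difference was 0.37 (exact permutation p = 0.00433, adjusted 0.0303). In male SVC the same ratio ran from 1.28 to 1.42 in Ctnnb1fl/fl and from 1.48 to 1.67 in Ctnnb1AdKO, a difference of 0.21. Its exact permutation p was 0.0571, the smallest that these libraries allow, and 0.1 after adjustment, which does not pass. In female adipocytes the ratio differed by -0.05, with overlapping groups (exact p = 0.565, adjusted 0.678).

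Atp5g1 against Atp5g2 went in opposite directions by sex. In males its log2 ratio ran from -1.26 to -0.83 in Ctnnb1fl/fl and from -0.87 to -0.63 in Ctnnb1AdKO, overlapping by 1 library on each side, a difference of 0.34 (exact p = 0.00866, adjusted 0.0455). In females it ran from -0.55 to -0.24 and from -0.71 to -0.54, a difference of -0.22 (exact p = 0.00433, adjusted 0.0303). Whether the genotype difference in this ratio differs between the sexes was not tested. Female and male Ctnnb1fl/fl adipocytes differed by 0.65 with no overlap (exact p = 0.00216, adjusted 0.0227), and this comparison shares its control libraries with both genotype comparisons. Atp5g3 to Atp5g2 differed by 0.36 between the control sexes (adjusted 0.0227). Both c-ring ratios have Atp5g2 as their denominator, so their results are not independent. Per kilobase of transcript, Atp5g2 stood at 138.8 ± 18.5 CPM in male Ctnnb1fl/fl and at 108 ± 22.3 CPM in male Ctnnb1AdKO adipocytes. Atp5g3 stood at 648.3 ± 49.6 and 660.4 ± 182 CPM. The part of each gene in these ratios was not tested.

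Cox7a2 to Cox7a2l was the other ratio that passed between genotypes. It stood at 0.72, 0.68, 0.57, 0.54, 0.37 and 0.26 in female Ctnnb1fl/fl and at 0.99, 0.95, 0.58, 0.85, 0.82 and 0.77 in female Ctnnb1AdKO adipocytes, a difference of 0.30 (exact p = 0.00866, adjusted 0.0455). The groups overlapped through the lowest Ctnnb1AdKO library. In males the difference was 0.15 (exact p = 0.403, adjusted 0.497). In all, 14 of the 42 ratio tests had an adjusted p below 0.05. Among the 14, Cox7b to Cox7b2 and Cox8a to Cox8c between control sexes have a denominator at 0 in nearly every library, so these 2 only restate the levels of Cox7b and Cox8a, and Cox8a to Cox8c between fractions in Ctnnb1AdKO rests on an SVC group with the sperm-rich replicate 4. In SVC no exact genotype test could go below p = 0.0571, the smallest that 4 against 3 libraries allow.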

How the data were processed

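The authors deposited whole-number read counts per gene, from strand-specific mRNA sequencing per the labels' protocols. The submitters' processing notes list mouse build mm39 and, as tools, STAR 2.7.11a, FastQC 0.12.1 and DESeq2. How reads were assigned to genes and strands, and on which gene models, is not given in the sources used here. From the deposited counts, levels were computed as CPM of the library total, and tests with edgeR 4.0.16 in R 4.3.3: TMM scaling, filterByExpr with a minimum count of 10, quasi-likelihood F-test, Benjamini-Hochberg over all genes tested, called below 0.05. All 23 adipocyte libraries were fitted as 4 groups, the 7 SVC libraries alone, and the 18 male libraries for fractions; the script was tested on simulated counts. DESeq2 1.42.0, limma 3.58.1, other scalings, no filter, a replicate block and each library left out were alternatives. Named genes were drawn, per comparison and complex, from the called member of largest change or else of smallest p, besides paralogues and members with an outlying library. Not every such member is named in each comparison. Cox17, Esrra, Ndufa10 and Ndufv1 were added after their values were seen. Members and lists were chosen with earlier results of these data known. The length classes and the female against male Ctnnb1AdKO contrast were chosen after seeing the data. No 2 libraries of a group agreed within counting noise.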

Additional observations from a re-analysis of the deposited data

Results flagged for a closer look

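In groups of 4 to 10 libraries, a member's highest or lowest library was picked out where its gap to the next was large beside the group's range (Dixon's test at the 95% level). This happened in 41 of 402 sets of member and group with enough counts. Chance flags about 1 in 20 groups, and members of one library are not independent.

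Male Ctnnb1AdKO adipocyte replicate 5 was the highest library for 19 members, across all 5 complexes. In complex I these were Ndufa11 (89.87 CPM), Ndufa12 (63.06 CPM), Ndufb10 (263.9 CPM), Ndufb6 (121.2 CPM), Ndufs1 (279 CPM), Ndufs3 (211.2 CPM), Ndufs8 (118.6 CPM) and Ndufv2 (155.1 CPM). In complexes II and III they were Sdhb (302.2 CPM), Cyc1 (391.2 CPM), Uqcrc1 (594.6 CPM) and Uqcrc2 (435.1 CPM). In complex IV they were Cox5a (178.2 CPM) and Cox5b (283.1 CPM), and in complex V Atp5a1 (1961 CPM), Atp5b (4233 CPM), Atp5c1 (634.6 CPM), Atp5g1 (66.9 CPM) and Atp5mpl (68.57 CPM). The transcript of Esrra was also highest in this library, at 95.56 CPM against 49.79 to 55.86 CPM in the other 4. Most abundant mitochondrially encoded messages were instead lowest in it. Among them, mt-Co1 stood at 6181 CPM against 8838 to 13570 CPM, and mt-Cytb at 2773 CPM against 3675 to 5588 CPM. The same held for mt-Nd2, mt-Nd4 and mt-Nd5, but not for mt-Nd1 (2431 CPM against 2118 to 2828 CPM).

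SVC Ctnnb1AdKO replicate 4, the library with the most sperm transcripts, was the highest for 13 members. The testis forms were among them: Cox6b2 (46.6 CPM), Cox7b2 (24.77 CPM) and Cox8c (73.28 CPM). The others were Ndufa6 (32.65 CPM), Ndufb5 (59.42 CPM), Ndufc1 (19.22 CPM), Ndufs6 (21.22 CPM), Ndufv2 (92.26 CPM), Uqcrq (75.84 CPM), Cox5a (78.78 CPM), Cox7a2 (66.28 CPM), Atp5e (63.06 CPM) and Atp5s (15.02 CPM).

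Male Ctnnb1fl/fl adipocyte replicate 2 was highest for Uqcrfs1 (206.1 CPM), Atp5f1 (307.3 CPM), Atp5j (147.2 CPM) and Atp5s (8.575 CPM). Replicate 1 of that group was highest for Ndufa13 (141.9 CPM), and replicate 6 lowest for Uqcrq (131.6 CPM). Female Ctnnb1AdKO replicate 4 was highest for Ndufa5 (50.65 CPM) and Ndufc1 (67.7 CPM), and SVC Ctnnb1AdKO replicate 1 was lowest for Atp5l (52.59 CPM).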

How the results depend on the processing

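Of the alternatives run, none reversed a named gene. In male adipocytes DESeq2 called 1 member lower between genotypes (Atp5o), and 1 higher for the female less male difference. Over all genes it called 159 and 23 in these comparisons, against 10 and 2 in edgeR. With only the groups compared in the fit, 1 member was lower in female than in male Ctnnb1fl/fl adipocytes. In the Ctnnb1fl/fl fraction contrast the lower count was 4 with library totals less mitochondrially encoded genes as the scale, and 1 under DESeq2, under limma-voom, on the libraries with a partner without the replicate block, and without the 2 sperm-rich libraries; in Ctnnb1AdKO it was 2 under DESeq2, 1 under limma-voom and 2 on the libraries with a partner. Over all genes the Ctnnb1fl/fl contrast called 13527 under that scale, 12826 in DESeq2 and 13020 in limma-voom, against 13293 in the main fit. In Ctnnb1AdKO these were 13460, 12638 and 12455, against 13199. For the other settings the calls over all genes are not given here. The medians under the library-total scale were 1.84 and 1.62, and relative to all genes 2.69 and 2.35, against 2.65 and 2.36 under TMM. With 2 counts added, 22 paralogue ratios passed.

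Leaving out 1 library at a time gave 31 to 47 members higher and 0 to 2 lower between control sexes, and 40 to 74 higher in knockouts. Lower members ran from 0 to 4 for the male genotype, from 1 to 3 and from 2 to 4 for the fraction contrasts, and higher ones from 0 to 1 for the difference. The share of all genes called in each of these fits is not given here, so these counts are not a result about the members. Member medians ran from -0.186 to 0.0127 (male genotype), 0.0605 to 0.147 (female), 0.0803 to 0.314 (difference), -0.0448 to 0.058 (average), 0.114 to 0.533 (SVC), 0.312 to 0.408 and 0.405 to 0.603 (sex), and 2.22 to 2.68 and 1.95 to 2.15 (fraction). Passing ratios ran from 5 to 21. Most fraction ratios sat at the smallest exact permutation p their libraries allow, with an adjusted p of 0.05 (Ctnnb1fl/fl) or 0.0476 (Ctnnb1AdKO). Leaving out 1 library can thus move them across 0.05 together, and other causes were not tested. Both c-ring ratios between control sexes passed in all 32 settings. Between adipocyte genotypes, Atp5g3 to Atp5g2 passed in 27 (male), Atp5g1 to Atp5g2 in 20 (male) and 27 (female), and Cox7a2 to Cox7a2l in 20 (female). The fraction ratios that passed in Ctnnb1AdKO did so in 16 settings, and those in Ctnnb1fl/fl passed in at most 2.

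Replicate numbers were not taken to pair the libraries, since in no check was every pair above 0.1: same-numbered libraries correlated at -0.256 to 0.288 in males, 0.000135 to 0.646 in females (5 of 6 above 0.1) and -0.364 to 0.386 in SVC, and 0 of 5, 2 of 6 and 0 of 3 correlated best with their own number. Between adipocytes and SVC the range was -0.0982 to 0.0652 in Ctnnb1fl/fl (2 of 3 best with their own) and -0.101 to 0.118 in Ctnnb1AdKO (1 of 4); by the numbers in the column names it was -0.0244 to 0.293 and 0.0518 to 0.147, with 2 of 3 best with their own in each. With the replicate block 0 members were called between genotypes (medians -0.094, 0.119 and 0.164), and 78 higher and 2 lower between fractions in Ctnnb1fl/fl. How many of all genes were called with the block is not given here. Members near 0 CPM, such as Cox6a2 and Ndufb4c, are limited by depth.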
